A study of Mus musculus with 6 samples.

Results

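Splicing factors and RNA-binding regulators of pre-mRNA were examined in whole mouse pancreas after deletion of Ptf1a, the transcription factor that drives the acinar gene program. Members were taken by gene symbol: the SR proteins (Srsf), the hnRNP proteins (Hnrnp), the subunits of the spliceosome (Sf3a, Sf3b, Snrp, Prpf and U2af), the numbered RNA-binding motif proteins (Rbm), the tissue-type regulators (Esrp, Celf, Mbnl and Ptbp), the SR kinases Clk1 to Clk4, and the Tra2, Elavl and Khdrbs families. The table of 10245 genes held 109 such symbols. The RefSeq annotation of GRCm38 gives 134 protein-coding symbols of these families, of which 25 are not among the symbols of the table. Of these, Hnrnpdl and Hnrnpll stand there under older names, and the others, among them Hnrnpa1, Snrpn, Elavl2, Elavl3, Elavl4 and Celf4, were not analysed here. All 109 passed the filter on low values, which removed no gene of the table. The control mice carried Ptf1a CreER/+ (n = 3) and the Ptf1a cKO mice Ptf1a CreER/fl (n = 3). Since CreER replaces the coding sequence of Ptf1a, the controls were heterozygous for Ptf1a, and recombination was driven by the Ptf1a locus, which in the adult pancreas is active in acinar cells. Mice of both groups also carried the R26R-EYFP reporter and received tamoxifen at 0.25 mg/g on 3 days, and the pancreas was taken on day 14. The controls were 4 months and the Ptf1a cKO mice 5 months old, so age and genotype cannot be told apart. Each group held 2 female mice and 1 male mouse.

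Splicing is carried out by the spliceosome, in which small nuclear ribonucleoprotein particles (snRNPs) with a shared ring of Sm proteins recognize the splice sites and the branch point. SR proteins bind exons and generally promote their inclusion, and many hnRNP proteins oppose it. Tissue-type regulators shift this balance between cell types: ESRP proteins act in epithelia, PTB proteins repress exons used in neurons and muscle, MBNL and CELF proteins act against each other during muscle and heart development. Many of these genes control their own level by including an exon with a premature stop codon, which sends the transcript to nonsense-mediated decay, and 53 of the 109 members have at least 1 such transcript in the GENCODE annotation. The deposited values add up all transcripts of a gene, so neither exon use nor splicing itself was measured.

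Promoter sequences are shown for 4 members that the results turn on, an SR protein of each direction, the PTB protein that fell and the MBNL protein that rose. They are the 250 bases before the annotated start, from RefSeq on GRCm38.p6, read 5′ to 3′ on the strand of the gene. Capitals mark any of 5 hexamers searched on both strands: CACCTG (an E-box), CAGCTG (an E-box and palindrome), CACGTG (likewise an E-box and palindrome), TTCCCA (the core bound by RBPJ, a partner of PTF1A) and TGACGT (the core bound by CREB and ATF proteins).
Srsf6, chr2:162931258-162931507, plus strand: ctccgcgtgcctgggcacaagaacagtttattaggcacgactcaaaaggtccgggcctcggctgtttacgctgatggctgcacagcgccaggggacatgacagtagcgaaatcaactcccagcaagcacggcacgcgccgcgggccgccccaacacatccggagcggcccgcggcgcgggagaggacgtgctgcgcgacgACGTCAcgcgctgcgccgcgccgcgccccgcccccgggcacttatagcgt
Srsf3, chr17:29032410-29032659, plus strand: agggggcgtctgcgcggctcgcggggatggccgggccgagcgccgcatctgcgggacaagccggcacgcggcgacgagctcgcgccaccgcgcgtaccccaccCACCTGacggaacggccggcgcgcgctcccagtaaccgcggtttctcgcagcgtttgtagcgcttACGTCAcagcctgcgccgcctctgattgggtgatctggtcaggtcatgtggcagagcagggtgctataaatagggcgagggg
Ptbp1, chr10:79854182-79854431, plus strand: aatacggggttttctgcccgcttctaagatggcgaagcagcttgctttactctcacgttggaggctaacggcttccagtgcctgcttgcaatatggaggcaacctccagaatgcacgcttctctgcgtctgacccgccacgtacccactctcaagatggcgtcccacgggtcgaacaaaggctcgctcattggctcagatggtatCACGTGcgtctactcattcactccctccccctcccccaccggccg
Mbnl3, chrX:51205991-51206240, minus strand: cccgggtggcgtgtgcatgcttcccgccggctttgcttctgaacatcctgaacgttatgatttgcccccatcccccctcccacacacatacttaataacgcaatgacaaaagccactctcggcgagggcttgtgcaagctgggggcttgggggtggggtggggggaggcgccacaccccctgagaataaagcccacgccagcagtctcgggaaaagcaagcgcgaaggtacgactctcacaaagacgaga
The Srsf6 window held TGACGT on the minus strand, 50 bases before the start. Srsf3 held CACCTG at 147 and TGACGT at 82 bases before the start. Ptbp1 held CACGTG at 45 bases before the start, and no letters of the 5 hexamers stood in the Mbnl3 window.

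A promoter was found for 91 of the 109 members. TGACGT stood in 22.0% of them, against 12.2% of the 7732 genes of the table with a promoter and 7.29% of all 27025 promoters. CACGTG stood in 14.3% of the members, 10.3% of the table and 6.86% of all promoters. The shares were 14.3%, 19.1% and 19.4% for CACCTG, 8.79%, 14.4% and 14.7% for CAGCTG, and 23.1%, 24.1% and 24.1% for TTCCCA. The differences between these shares were not tested. Of the members past the threshold described below, 10 had a promoter to search, and Esrp2 had none. Among those 10, TGACGT stood in Srsf6, Srsf3 and Hnrnpm, which moved in different directions. CACGTG stood in Ptbp1, Rbm15b and Rbm19, TTCCCA in Rbm18 and Rbm19, and CACCTG in Srsf3. The hexamers were chosen after values had been seen, and a match is a description of letters, not of binding.

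The libraries of the 2 groups differed strongly outside this family. Ptf1a itself read 566, 601 and 652 normalized counts in the control libraries and 19.8, 70.1 and 10.2 in the Ptf1a cKO libraries. Of 10 acinar markers, 8 fell, and their summed level was 9393900 to 11810000 in controls and 1177500 to 3657900 in Ptf1a cKO. Secreted acinar proteins took 84.9% to 87.0% of the normalized counts on genes in controls but 54.3%, 69.0% and 44.0% in Ptf1a cKO. The share was highest in Ptf1a cKO 2, the male mouse of that group, so sex and other traits of that library cannot be told apart. Markers of other cells rose in 7 of 7 cases for fibroblasts (summed level 2903 to 3292 and 5739 to 10371), in 5 of 6 for leukocytes (703 to 1282 and 1594 to 4395), in 4 of 8 for ducts (3887 to 4536 and 25464 to 108920), in 3 of 4 for smooth muscle (194 to 217 and 257 to 534), in 2 of 3 for proliferating cells (27.7 to 102 and 109 to 496) and in 1 of 4 for adipocytes (167 to 405 and 314 to 1159). In Ptf1a cKO the duct sum was mostly Spp1 (1677, 1959 and 1327 in controls and 87512, 20971 and 105340 in Ptf1a cKO), and the other 7 duct markers summed to 2481 to 2578 and 3564 to 4494. None of 5 endothelial markers (606 to 769 and 585 to 720) and none of 9 endocrine markers (11651 to 43259 and 5923 to 33931) passed the test with limma (1 and 0 at an unadjusted p under 0.05), and no marker on these lists was at 0 in all libraries. In whole tissue, fewer cells of a type and less RNA per cell cannot be told apart, and the part of cell composition in the values below was not tested.

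Most members differed little between the groups. With limma and Benjamini-Hochberg adjustment over all 10245 genes, 11 of 109 members (10.1%) passed an adjusted p of 0.05, where 33.9% of all genes did. Of these, 4 were higher in Ptf1a cKO (Mbnl3, Hnrnpm, Prpf6 and Srsf3), where 17.1% of all genes were, and 7 were lower (Srsf6, Rbm19, Rbm15b, Rbm34, Esrp2, Rbm18 and Ptbp1), where 16.8% were. This split was 9 higher and 7 lower with libraries set to the same 75th percentile, 1 and 9 with the same total outside acinar secreted proteins, and 107 and 0 with the same total over all genes, a scaling that moved the median gene itself by 1.48 on the log2 scale. With the same total outside acinar secreted proteins, which moved the median gene by -0.11, Hnrnpm, Prpf6 and Srsf3 no longer passed. Without the library Ptf1a cKO 2, 7 members were higher and 8 lower. The groups did not overlap for 37 members (33.9%), 22 higher and 15 lower, against 50.8% of all genes. An unadjusted p under 0.05 was found for 20 members and for 4645 of all genes. Only Srsf6 changed by at least 2-fold and passed the test, and 0.917% of members exceeded that fold in either direction, against 12.4% of all genes.

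**Figure D1:**
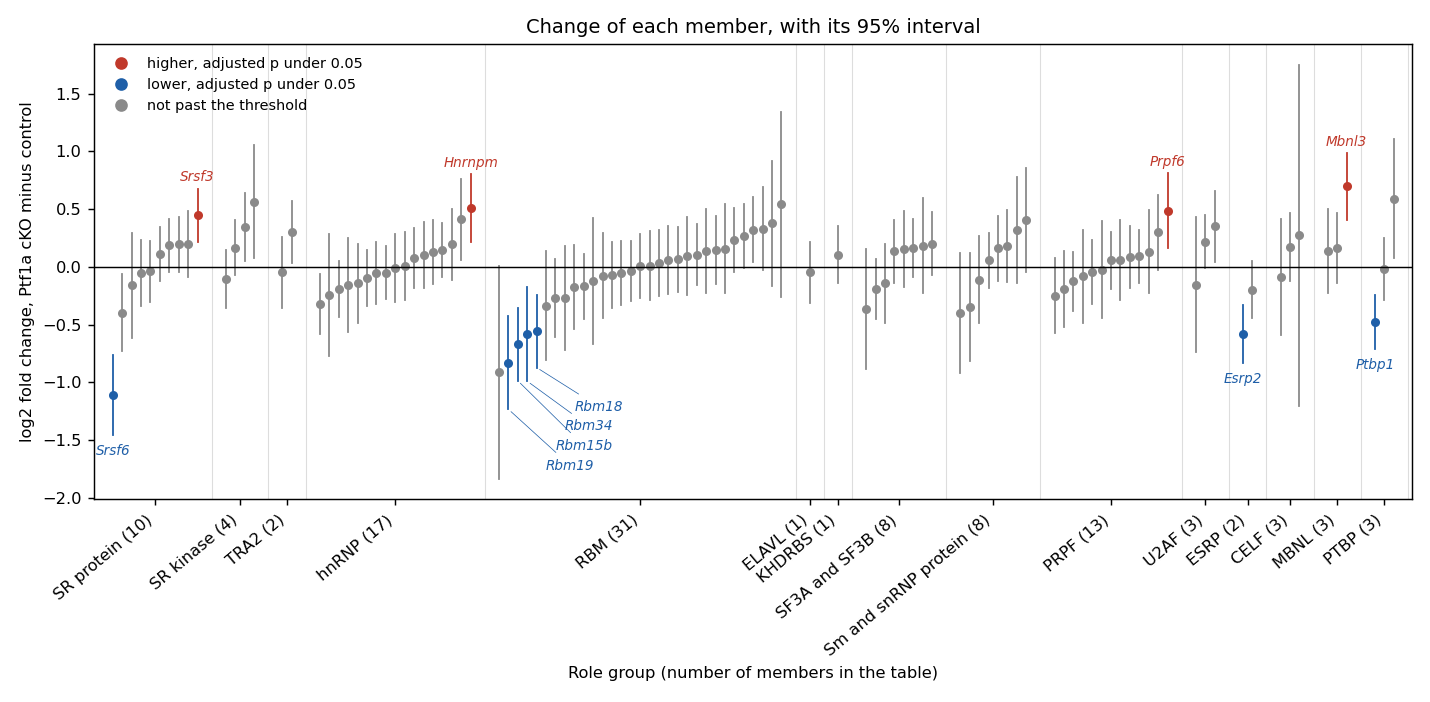
The y axis gives the log2 fold change on the deposited scale (Ptf1a cKO minus control) of each of the 109 members, sorted within role groups along the x axis, with points for estimates and lines for 95% intervals. The 4 members in red and 7 in blue passed an adjusted p of 0.05, and Srsf6 lies lowest at -1.11; all 7 in blue read higher when libraries are set to the same total.

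The changes of the members were also smaller in size than those of the table. The median log2 fold change was 0.05 for members and 0.04 for all genes, while the middle 50% of members lay between -0.14 and 0.18 and that of all genes between -0.28 and 0.39. The median size of a change regardless of direction was 0.16 for members and 0.33 for all genes. The 95% interval lay inside 1 log2 unit in either direction for 102 members (93.6%, against 70.2% of all genes) and inside 0.5 for 59 (54.1%, against 24.7%). Members were measured with a median SE of 0.13 and all genes with 0.16, and the median coefficient of variation of members was 11.1% over control and 7.81% over Ptf1a cKO libraries. Among genes with a mean of at least 100 normalized counts over all libraries, 10 of 80 members passed the test (12.5%), against 38.0% of 6070 genes. Summed over the family, controls held 35030 ± 1177 and Ptf1a cKO 33380 ± 388 normalized counts (SD, n = 3). As a share of all normalized counts on genes, which the secreted acinar proteins dominate, the family was 0.175 ± 0.0132% in controls and 0.481 ± 0.116% in Ptf1a cKO. Outside those proteins the shares were 1.28 ± 0.0374% and 1.10 ± 0.0830%.

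**Figure D2:**
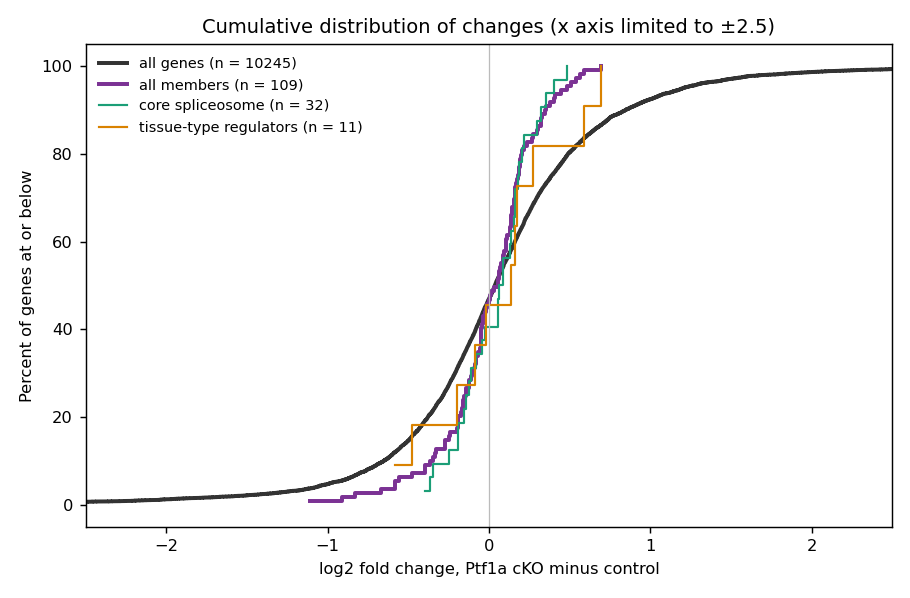
The x axis gives the log2 fold change (Ptf1a cKO minus control) and the y axis the percent of genes at or below it, for all 10245 genes, the 109 members, the 32 core spliceosome members and the 11 tissue-type regulators. The curve of the members is steeper than that of all genes and crosses it near 0, with 50% of members between -0.14 and 0.18.

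The spliceosome core had the smallest share of calls among the core, the tissue-type regulators and the other regulators. Of its 32 members, 1 rose and 0 fell (3.12%, limma), where 33.9% of all genes passed. The median log2 fold change was 0.07 and the values ran from -0.40 to 0.49. At an unadjusted p under 0.05 there were 2. For 20 of the 32 the 95% interval lay inside 0.5 log2 units in either direction, and for all 32 inside 1. Per role the counts past the threshold were 0 of 8 for the SF3A and SF3B subunits of the U2 snRNP, 0 of 8 for the Sm and snRNP proteins, 0 of 3 for U2AF and 1 of 13 for the PRPF proteins. At an unadjusted p under 0.05 they were 0, 0, 1 and 1.

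Sf3b1, the subunit of the U2 snRNP that contacts the branch point, read 933, 1030 and 1039 normalized counts in controls and 1151, 1050 and 1161 in Ptf1a cKO. The groups were apart by a narrow gap, and the log2 fold change was 0.16 (SE 0.11, adjusted p = 0.283). Sf3a1, of the same particle, read 212, 207 and 224 in controls and 172, 187 and 205 in Ptf1a cKO, a change of -0.19 (adjusted p = 0.22). U2AF recognizes the 3′ splice site, with U2af2 on the polypyrimidine tract and U2af1 on the AG that follows it. U2af2 read 196, 189 and 189 in controls and 226, 225 and 217 in Ptf1a cKO, with every Ptf1a cKO library above every control, and did not pass the test (0.22, SE 0.10, adjusted p = 0.128). U2af1 read 30.0, 25.7 and 30.6 in controls and 19.8, 30.9 and 26.9 in Ptf1a cKO, near the low end of the table, and its groups overlapped (-0.15, 95% interval -0.74 to 0.43). The third member, U2af1l4, a paralog of U2af1, read 66.1, 77.8 and 63.2 in controls and 93.2, 85.3 and 87.8 in Ptf1a cKO (0.35, adjusted p = 0.0734).

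Snrpe, a protein of the Sm ring, had the smallest adjusted p of its group. It read 43.8, 35.0 and 31.6 in controls and 54.3, 42.4 and 52.2 in Ptf1a cKO, with overlapping groups (0.40, SE 0.20, adjusted p = 0.144). The member of the core that passed was Prpf6, which bridges the particles of the tri-snRNP. Prpf6 read 242, 262 and 182 in controls and 324, 315 and 314 in Ptf1a cKO. The 3 Ptf1a cKO libraries lay close together above all controls, of which control 3 was lowest, and the rise was 0.49 (SE 0.14, adjusted p = 0.0287). The call was lost without a mean-variance trend (adjusted p = 0.0505), without control 1 (0.53, adjusted p = 0.0571), without Ptf1a cKO 1 (0.47, adjusted p = 0.0759) and without Ptf1a cKO 3 (0.49, adjusted p = 0.0644). Prpf8, the largest protein of the U5 snRNP and the most abundant member of the core per kilobase of exon, had a log2 fold change of -0.04 (95% interval -0.32 to 0.23).

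SR proteins held both the largest fall and one of the rises. Of 10, 1 rose and 1 fell, 2 of 10 past the threshold, where 33.9% of all genes passed. Srsf6 read 4544, 4953 and 3925 normalized counts in controls and 2171, 2288 and 1759 in Ptf1a cKO. The highest Ptf1a cKO library was below the lowest control by a wide gap. Srsf6 fell by 1.11 on the log2 scale (SE 0.15, adjusted p = 9.09e-04, 95% interval -1.46 to -0.77), a level 2.16-fold higher in controls, and the fit passed the threshold whichever library was left out, with values of -1.20 to -0.998. Per kilobase of exon Srsf6 was the most abundant of the 109 members in both groups, with 930 normalized counts in controls and 431 in Ptf1a cKO, and the next was Hnrnpab with 360 and 287.

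Srsf3, the smallest SR protein, which also takes part in mRNA export, read 173, 185 and 180 in controls and 249, 246 and 241 in Ptf1a cKO. Both groups were tight and did not overlap. Srsf3 rose by 0.45 (SE 0.10, adjusted p = 0.0103) and passed whichever library was left out. Srsf2 read 792, 799 and 1015 in controls and 607, 773 and 598 in Ptf1a cKO, with Ptf1a cKO 2 just below the controls. It missed the threshold (-0.40, SE 0.15, adjusted p = 0.0667) and passed it without Ptf1a cKO 2 (-0.52, adjusted p = 0.0201). Srsf1, a founding member of the family, read 621, 605 and 626 in controls and 719, 674 and 715 in Ptf1a cKO (0.19, adjusted p = 0.183). The other 6 SR proteins had log2 fold changes between -0.16 for Srsf4 and 0.20 for Srsf10.

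The makeup of the SR protein counts within a library does not depend on how libraries were scaled. Srsf6 gave 54.4 ± 4.01% of the summed SR protein counts in controls and 35.5 ± 2.64% in Ptf1a cKO, and Srsf3 2.18 ± 0.0863% and 4.21 ± 0.215% (SD, n = 3). The ratio of Srsf6 to Srsf3 was 26.3, 26.8 and 21.9 in controls and 8.73, 9.31 and 7.31 in Ptf1a cKO, and it was highest in Ptf1a cKO 2 among the Ptf1a cKO libraries, which also kept the highest share of secreted acinar proteins. These pairs were chosen after their values had been seen and carry no test.

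**Figure D3:**
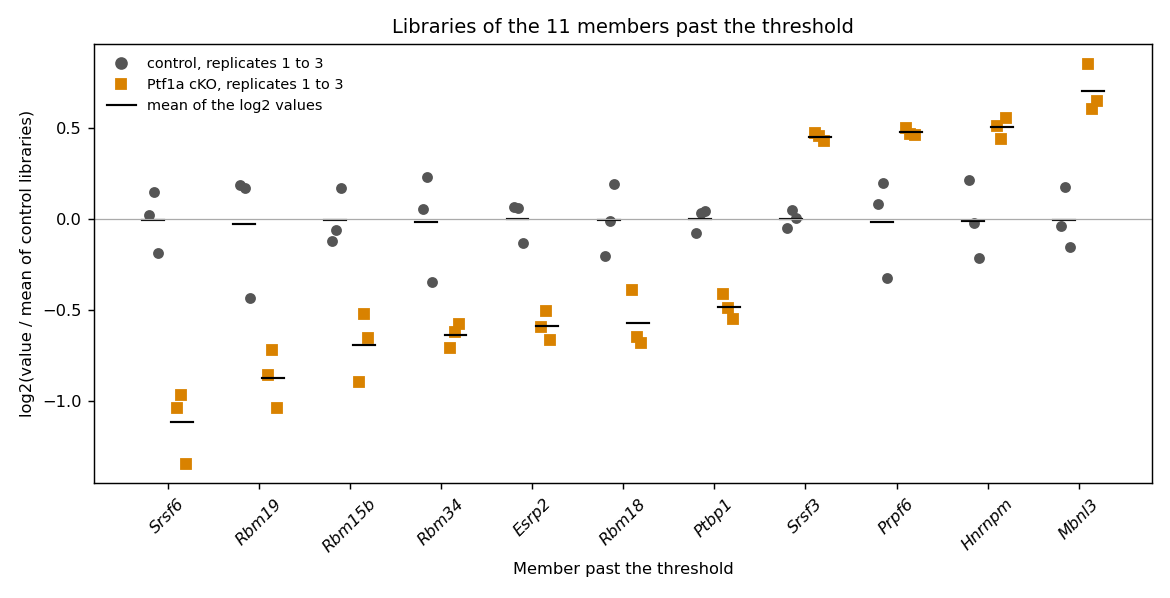
For the 11 members past the threshold, listed along the x axis, the y axis gives the log2 of each library's value over the mean of the control libraries, with circles for 3 controls, squares for 3 Ptf1a cKO and bars for group means. The groups do not overlap for any of the 11, and Srsf6 is farthest from its controls.

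The kinases that phosphorylate SR proteins were represented by Clk1 to Clk4. Of these, 0 of 4 passed the test with limma, against 33.9% of all genes, and 2 had an unadjusted p under 0.05. Groups did not overlap for 3, all higher in Ptf1a cKO, where 50.8% of all genes did not overlap. Clk1 read 539, 489 and 287 in controls and 673, 553 and 663 in Ptf1a cKO, with control 3 far below the other controls. Its log2 fold change was 0.56 (SE 0.22, adjusted p = 0.0734) and, without control 3, 0.29, adjusted p = 0.133. Clk2 read 187, 191 and 146 in controls and 229, 218 and 217 in Ptf1a cKO (0.35, adjusted p = 0.0693). Srpk1, the main cytoplasmic SR protein kinase and not of the CLK family, read 371, 415 and 412 in controls and 188, 231 and 211 in Ptf1a cKO. Its groups were far apart, and it fell by 0.92 (SE 0.12, adjusted p = 6.40e-04). Its paralog Srpk2 lay in the other direction, with 111, 98.0 and 111 in controls and 138, 117 and 177 in Ptf1a cKO. Srpk2 did not pass with limma (0.40, SE 0.16, adjusted p = 0.0797). Tra2a, an SR-like activator of exons, read 181, 223 and 191 in controls and 257, 246 and 232 in Ptf1a cKO (0.30, adjusted p = 0.0779), and its paralog Tra2b had a log2 fold change of -0.05.

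Of 17 hnRNP proteins, 1 rose and 0 fell (5.88%, against 33.9% of all genes), and the median log2 fold change was -0.01. Hnrnpm read 569, 483 and 423 in controls and 701, 668 and 723 in Ptf1a cKO, where all 3 libraries were above the highest control. It rose by 0.51 (SE 0.13, adjusted p = 0.0158), and the call was lost without control 2 (0.50, adjusted p = 0.0572). Its exons overlap those of March2 on the same strand. Hnrnph2 read 105, 146 and 112 in controls and 184, 149 and 151 in Ptf1a cKO, with a gap of few counts between the groups. It did not pass (0.41, SE 0.16, adjusted p = 0.0689). Of the fits with a library left out, only that without control 2 called it (0.55, adjusted p = 0.0347). Hnrnph2 was also called with libraries set to the same 75th percentile and to the same total over all genes. Hnrnpab, the most abundant hnRNP per kilobase, was at -0.33 with an adjusted p of 0.0547, and Hnrnpa2b1, next in level, at 0.13 (95% interval -0.15 to 0.41). Outside the symbol pattern, 3 genes that the table lists under older names were also read, chosen after their values were seen. Of the hnRNP family, Hnrpll fell by 0.39 (adjusted p = 0.0365) and Hnrpdl was at 0.07 (adjusted p = 0.644). Sfrs18, which is not counted among the annotated symbols of these families, rose by 0.74 (adjusted p = 0.00146).

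The tissue-type regulators were set against this background. Of 11, 1 rose (Mbnl3) and 2 fell (Esrp2 and Ptbp1), which is 27.3% against 3.12% of the core spliceosome, 10.6% of the other 66 regulators and 33.9% of all genes. The difference between these shares was not tested, and it rests on few calls. On other measures the classes were close. The median size of a change was 0.20 for the tissue-type regulators, 0.16 for the core and 0.16 for the other regulators. Groups did not overlap for 36.4%, 31.2% and 34.8% of them, against 50.8% of all genes. The core was also measured less precisely, with a median SE of 0.144 against 0.129 for the tissue-type regulators. In each family the member that moved had paralogs that did not pass.

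ESRP proteins maintain epithelial exon choices, such as that of Fgfr2. Esrp2 read 469, 468 and 409 in controls and 297, 316 and 282 in Ptf1a cKO. All Ptf1a cKO libraries lay below all controls and close together. Esrp2 fell by 0.58 (SE 0.11, adjusted p = 0.00434), with -0.65 to -0.54 when a library was left out, all past the threshold. Esrp1 read 483, 532 and 485 in controls and 435, 463 and 409 in Ptf1a cKO, also without overlap. Its change of -0.20 did not pass (adjusted p = 0.185, 95% interval -0.44 to 0.05). The ratio of Esrp2 to Esrp1 was 0.971, 0.880 and 0.845 in controls and 0.683, 0.682 and 0.691 in Ptf1a cKO. In the same libraries Epcam, a marker of epithelial cells, rose by 1.37 and Sox9, a duct transcription factor, by 2.21.

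Ptbp1, which is known to hold down its neural paralog Ptbp2 in other cells, read 596, 644 and 649 in controls and 473, 449 and 430 in Ptf1a cKO. The groups were tight and apart, and Ptbp1 fell by 0.48 (SE 0.10, adjusted p = 0.00811), past the threshold with each library left out in turn. Ptbp2 read 44.1, 55.5 and 30.3 in controls and 74.7, 54.4 and 68.0 in Ptf1a cKO. Control 2 was just above Ptf1a cKO 2, so the groups overlapped, and the log2 fold change of 0.59 did not pass (SE 0.23, adjusted p = 0.0749). Of the fits with a library left out, only that without control 2 called it (0.78, adjusted p = 0.0474). Ptbp2 was also called with libraries set to the same total over all genes. Ptbp3 read 409, 387 and 462 in controls and 388, 400 and 454 in Ptf1a cKO (-0.02, 95% interval -0.28 to 0.25). Within a library, the ratio of Ptbp1 to Ptbp2 was 13.5, 11.6 and 21.4 in controls and 6.34, 8.24 and 6.33 in Ptf1a cKO, without overlap. As Ptbp1 alone already separated the groups, this gap carries no test. Per kilobase of exon, Ptbp1 went from place 8 of the 109 members in controls to place 16 in Ptf1a cKO, and Ptbp2 was among the lowest in both, with 4.72 and 7.16 normalized counts.

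MBNL proteins bind short motifs with a GC core and drive the adult splicing pattern of muscle. Mbnl3 read 133, 155 and 123 in controls and 247, 209 and 215 in Ptf1a cKO. Every Ptf1a cKO library was above every control, Ptf1a cKO 1 being the highest. The rise of 0.70 (SE 0.13, adjusted p = 0.00373), 1.62-fold, was the largest of the 109 members and passed with each library left out in turn (0.62 to 0.78). Mbnl1 read 344, 354 and 459 in controls and 445, 349 and 483 in Ptf1a cKO (0.14, adjusted p = 0.531). Mbnl2 read 621, 647 and 782 in controls and 771, 683 and 841 in Ptf1a cKO (0.16, adjusted p = 0.364). Both had overlapping groups. Mbnl3 gave 11.5 ± 2.24% of the summed MBNL counts in controls and 15.9 ± 1.68% in Ptf1a cKO (SD, n = 3). Beside this rise, the summed fibroblast, leukocyte, smooth muscle, duct and proliferating cell markers were also higher in every Ptf1a cKO library. Their part in the rise of Mbnl3 was not tested.

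The CELF proteins, which bind GU-rich sites, had 0 of 3 past the threshold with limma, where 33.9% of all genes passed, and 0 with an unadjusted p under 0.05. Celf1 read 417, 451 and 342 in controls and 445, 431 and 482 in Ptf1a cKO (0.17, adjusted p = 0.327). Celf2 read 110, 100 and 122 in controls and 90.7, 79.5 and 154 in Ptf1a cKO, with Ptf1a cKO 3 above and the other two below the controls (-0.09, adjusted p = 0.787). Celf3, a neural and endocrine member, read 17.5, 15.3 and 31.1 in controls and 36.1, 5.62 and 63.3 in Ptf1a cKO, the lowest level per kilobase of all members in controls. Ptf1a cKO 2 had the least and Ptf1a cKO 3 the most. The summed endocrine markers were 12288, 11651 and 43259 in controls and 27737, 5923 and 33931 in Ptf1a cKO, lowest in Ptf1a cKO 2 but highest in control 3, and their part in the level of Celf3 was not tested. The log2 fold change of Celf3 was 0.27 (SE 0.65, adjusted p = 0.773) and, without Ptf1a cKO 2, 1.11, adjusted p = 0.0383.

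**Figure D4:**
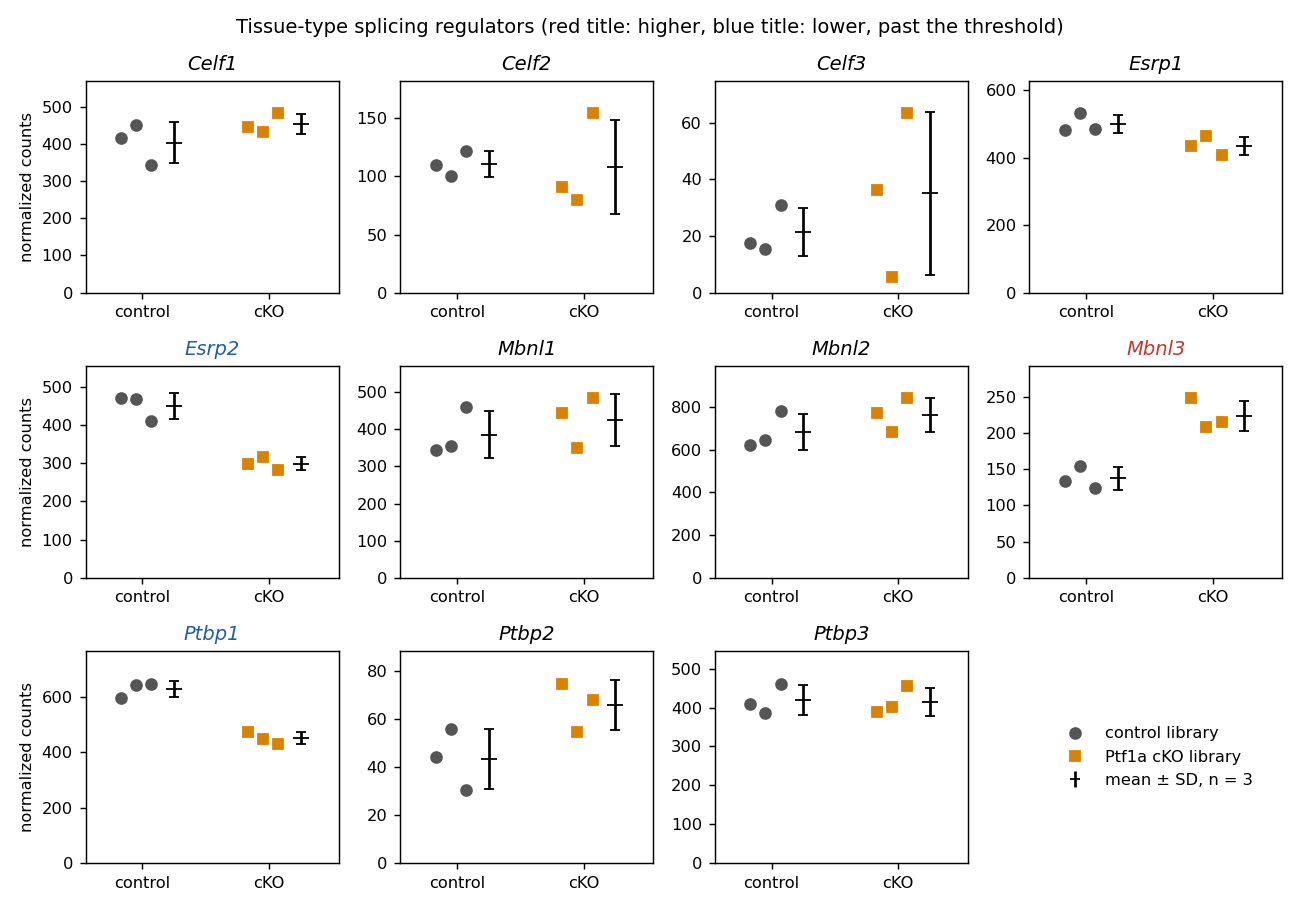
Each panel gives the normalized counts (y axis, from 0) of 1 tissue-type regulator in 3 control and 3 Ptf1a cKO libraries (x axis), with mean ± SD. Esrp2 and Ptbp1 (blue titles) lie lower and Mbnl3 (red title) higher in Ptf1a cKO without overlap, and Celf3 spreads from 5.62 to 63.3 among the Ptf1a cKO libraries.

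**Figure D5:**
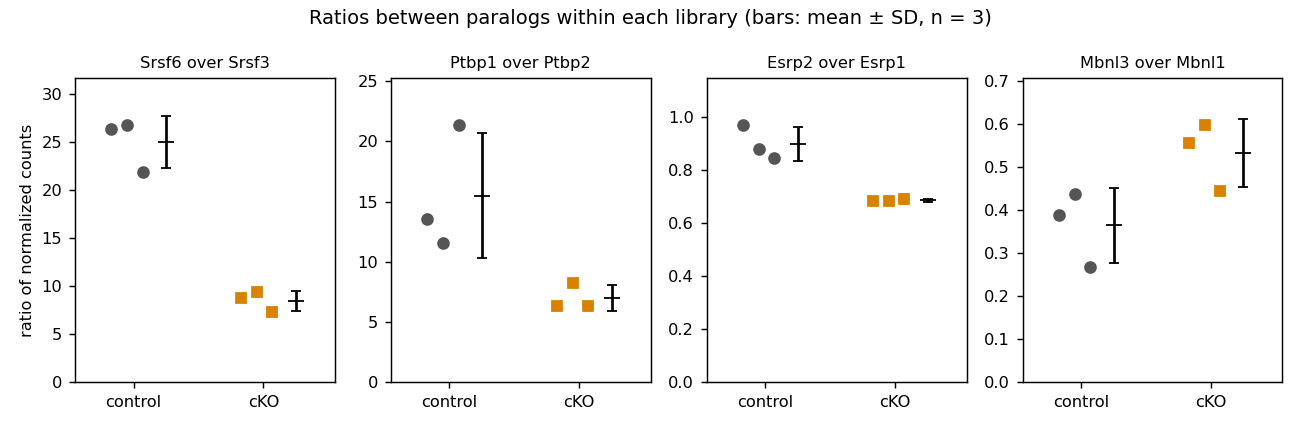
The y axis of each panel gives the ratio of normalized counts of 2 paralogs within a library, which no scaling of libraries can change, for 3 control and 3 Ptf1a cKO libraries (x axis) with mean ± SD. The groups do not overlap in the 4 panels, with Srsf6 over Srsf3 at 21.9 to 26.8 in controls and 7.31 to 9.31 in Ptf1a cKO. The numerator of each ratio is a member past the threshold whose own groups do not overlap, so the separation carries no test.

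The RBM proteins are named for their RNA-binding motif and act in splicing, ribosome assembly and RNA modification. Of 31, 0 rose and 4 fell (12.9%), where 33.9% of all genes passed and 16.8% were lower. The median log2 fold change was 0.0029. Rbm19, a nucleolar protein of ribosome assembly, read 275, 272 and 179 in controls and 134, 147 and 118 in Ptf1a cKO. Control 3 was the lowest control but above all Ptf1a cKO libraries, and Rbm19 fell by 0.83 (SE 0.18, adjusted p = 0.00733). Rbm15b, an adaptor of the complex that methylates adenosines of RNA, read 151, 157 and 184 in controls and 87.9, 114 and 104 in Ptf1a cKO, with no overlap. It fell by 0.67 (SE 0.14, adjusted p = 0.00651). Its exons overlap on the same strand those of Manf, a gene of the endoplasmic reticulum stress response, which read 1189, 1153 and 1387 in controls and 1067, 1239 and 761 in Ptf1a cKO. Rbm19 and Rbm15b both passed whichever library was left out.

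Rbm18 read 188, 214 and 247 in controls and 165, 138 and 134 in Ptf1a cKO. The groups were apart and it fell by 0.56 (SE 0.14, adjusted p = 0.0152), a call lost without Ptf1a cKO 3 (-0.50, adjusted p = 0.0515). Rbm34 read 71.8, 81.2 and 54.4 in controls and 42.2, 44.8 and 46.4 in Ptf1a cKO and fell by 0.58 (SE 0.18, adjusted p = 0.0339). Its call held in 1 of 6 fits with a library left out, that without control 3, and the adjusted p of the others reached 0.135 without control 2. Rbm3, a cold-induced protein, read 105, 95.6 and 99.1 in controls and 108, 102 and 114 in Ptf1a cKO (0.11, 95% interval -0.16 to 0.37). The ELAVL and KHDRBS families each had 1 member in the table. Elavl1, which stabilizes messages with AU-rich elements, was at -0.05 (95% interval -0.31 to 0.22). Khdrbs1, the protein Sam68, was at 0.11 (95% interval -0.14 to 0.35).

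Levels per kilobase of exon placed the members over a wide range. In controls, Srsf6 (930 normalized counts per kilobase), Hnrnpab (360), Srsf2 (294) and Hnrnpa2b1 (252) led, and Celf3 (3.89), Celf2 (4.28) and Ptbp2 (4.72) were last. The same 4 genes led in Ptf1a cKO at 431 for Srsf6, 287 for Hnrnpab, 275 for Hnrnpa2b1 and 223 for Srsf2. The libraries of Srsf6 lay above those of every other member in both groups. In controls those of Hnrnpab lay just above those of Srsf2, while Srsf2 and Hnrnpa2b1 overlapped, and in Ptf1a cKO the ranges of the other three overlapped.

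Other genes of the pathway were counted from lists, whose shares past the threshold lay below the 33.9% of all genes. Of 58 further spliceosome components, 4 rose and 4 fell (13.8%, median log2 fold change 0.08). The rises were those of Lsm3 (1.14), a ring protein of U6, Zmat2 (0.60), and the helicases Ddx39b (0.60) and Ddx5 (0.49). Lsm3 read 16.4, 20.9 and 25.4 in controls, near the low end of the table, and 51.9, 46.9 and 49.7 in Ptf1a cKO. The falls were those of Sugp1 (-1.02), which works with SF3B1 at the branch point, Txnl4a (-0.72), a U5 protein, Ddx23 (-0.32) and Htatsf1 (-0.31). Sugp1 read 582, 526 and 562 in controls and 276, 346 and 211 in Ptf1a cKO, without overlap. Of 15 genes of snRNP assembly, 0 passed with limma and 5 had an unadjusted p under 0.05, with a median of -0.30. In the exon junction and nonsense-mediated decay list, Smg6 rose (0.51) and Upf3a fell (-0.64) among 16 (12.5%). Of 48 other RNA-binding genes, 9 passed (18.8%). Of these, 3 rose, among them Zfp36 (1.00) and Pspc1 (0.74), and 6 fell, among them Pcbp4 (-1.18), Srpk1 (-0.92) and Ybx3 (-0.82).

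An exact permutation test of 3 against 3 libraries cannot give a two-sided p below 0.1, so calls for single members rest on the spread that limma estimates across genes. Relative to the median gene, the log2 fold change of Srsf6 was -1.15 to -1.09 and of Esrp2 -0.62 to -0.58 over the 5 scalings compared. That of Ptbp1 was -0.52 to -0.47 and of Mbnl3 0.66 to 0.68. A scaling moves all genes of a library alike, so apart from the pseudocount these narrow ranges were fixed in advance and test nothing. Esrp2, Hnrnpm, Ptbp1, Rbm15b, Rbm18 and Rbm19 overlap exons of another gene, which makes their counts less certain. For Hnrnpm and Rbm15b an overlap lies on the same strand, so counting by strand would not resolve it. For Esrp2, Ptbp1, Rbm18 and Rbm19 the overlaps lie on the opposite strand, and whether counting used the strand is not given.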

How the data were processed

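RNA of 6 whole pancreata, each from a separate mouse, was sequenced by the authors as single-end reads. The submitters' processing notes name TopHat2 2.0.4, Bowtie 0.12.7.0, SAMtools 0.1.18.0, HTSeq 0.6.0 and the build mm9, and the paper names edgeR with TMM scaling. Use of the strand in counting is not given in the sources used here. The authors deposited a normalized signal per gene, in read counts after scaling, without whole numbers, so count models were not used. Depth could not be read from them, and precision rests on the 3 mice per group. In addition, 3 entries name no gene and were left out of sums and tests (75.7% to 77.3% of the normalized counts of control and 78.9% to 82.6% of Ptf1a cKO libraries). HTSeq drops alignments that are not unique, which makes genes with near copies, such as Sm and hnRNP genes, less certain. A spreadsheet had turned 17 symbols into dates.

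All values were divided by 13.6393, and log2(value + 0.25) was compared between groups by limma 3.58.1 in R 4.3.3 (lmFit, eBayes with a trend, two-sided, Benjamini-Hochberg over 10245 genes, adjusted p under 0.05). Genes with a mean of at least 0.25 were kept, which were all. The pseudocount equals 3.41 normalized counts, so fold changes of low genes are understated. Python 3.11.15 with pandas 2.3.3 and SciPy 1.17.1 gave summaries and exact permutation tests. Exon lengths and overlaps came from GENCODE on GRCm38 by symbol.

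The members and lists were chosen with earlier results of these data known. Named with values were all Esrp, Celf, Mbnl and Ptbp genes, members past the threshold with a change of at least 2-fold, the 5 smallest adjusted p in each direction, the leading gene of each role group and a few well-known factors. Rbm18 and Rbm34 fall outside this rule and were added, since 11 members were called in all. Prpf8, Tra2b, Hnrnpab, Hnrnpa2b1, Srsf4, Srsf10, Srpk1, Srpk2, Manf, Epcam, Spp1 and the genes named from other lists were chosen after their values were seen. Alternatives were pseudocounts of 0.05 and 1, no filter and a mean of at least 5, 4 other scalings, limma with robust estimation or no trend, an adjusted p under 0.01, the replicate block, sex as covariate, and each library left out.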

Additional observations from a re-analysis of the deposited data

Results flagged for a closer look

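The deposited table also gives the counts assigned to no gene, to several genes or to alignments that were not unique, which no comparison used. Their share averaged 80.5% of the normalized counts in the Ptf1a cKO libraries (78.9% to 82.6%) and 76.2% in controls (75.7% to 77.3%), and was flagged because it lay above the level in the controls.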

How the results depend on the processing

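Other pseudocounts, no filter on low values, robust estimation and sex as covariate kept all 11 members past the threshold. A mean of at least 5 after division removed Rbm34 from the test, and limma without a trend lost Prpf6 (adjusted p = 0.0505), leaving 0 core members higher. The median of ratios added Hnrnpab. With the same 75th percentile 9 members were higher, 2 of them in the core. With the same total outside acinar secreted proteins 1 member was higher and 0 in the core, as Hnrnpm (0.36, adjusted p = 0.0800), Prpf6 (0.34, adjusted p = 0.123) and Srsf3 (0.30, adjusted p = 0.0990) were lost. With an adjusted p under 0.01, 1 member was higher, 5 lower and 0 in the core. With the same total over all genes, 107 members were higher and 0 lower, all 11 tissue-type regulators higher and 0 lower, and all 32 core members higher. There the median gene moved by 1.48, and values reversed for Celf2 (1.36), Elavl1 (1.43), Esrp1 (1.29), Esrp2 (0.90), Ptbp1 (1.01), Ptbp3 (1.47), Rbm15b (0.79), Rbm18 (0.91), Rbm19 (0.64), Rbm34 (0.83), Sf3a1 (1.28), Srsf2 (1.09), Srsf6 (0.38) and U2af1 (1.17). This shift follows from the fall in the totals. With each library left out in turn, 3 to 7 members were higher (7 without Ptf1a cKO 2), 6 to 8 lower, 1 to 2 tissue-type regulators higher and 2 lower, 0 to 1 core members higher and 0 lower, and between 2363 (23.1%) and 3601 (35.1%) of all genes were called.

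The replicate block called 12 members, the 11 and Rbm38, and 3525 genes. Control and Ptf1a cKO libraries of the same number correlated at 0.04, 0.13 and 0.14 in their deviations from the group means, each library correlating best with its own number except Ptf1a cKO 1. Since 1 pair was under 0.1, the libraries were taken to share only a number. No limit from counting error is given, since the deposited values are scaled and not whole reads, and genes near the lowest level, such as Celf3, were the least precise.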
